A study of Mus musculus with 4 samples.

Results

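Megakaryocyte and platelet genes were followed in LSK cells of Afg3l2 KO mice and Afg3l2 WT mice. LSK cells are the bone marrow cells without lineage markers that carry Sca-1 and c-Kit, and they include the blood-forming stem cells and their earliest progeny. The 9 genes were chosen by name, under the heading of megakaryocyte and platelet genes. They were the glycoprotein genes Gp5, Gp9 and Gp1bb, the thrombin receptor gene F2r and the integrin genes Itga2b and Itgb3. The granule genes Vwf, Pf4 and Selp completed the list. The deposited table held 15255 genes, of which 8 were members, and Gp1bb was not analysed here. There were 2 libraries of each genotype, made from poly(A) RNA of freshly taken cells. The labels give no age, no allele, no Cre driver and no statement on how many animals gave each library. The p-values rest on the spread between the 2 libraries of a genotype, moderated by the spread of other genes. The 2 libraries of a genotype differed in sex-linked RNA. The authors named their deposited comparison paired, whereas the main test used here did not pair the libraries.

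Megakaryocytes are the marrow cells that shed platelets. On their surface they carry a glycoprotein complex that catches von Willebrand factor and an integrin that binds fibrinogen, and they fill alpha granules with chemokines, clotting proteins and adhesion molecules. Several of these genes are also transcribed in mouse blood stem cells, where Vwf and Itga2b are known to mark cells with a bias towards platelets. In bulk RNA, more cells of a type and more RNA per cell cannot be told apart.

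Gp5 and F2r rose in Afg3l2 KO LSK cells. Gp5 averaged 48.3 ± 6.04 CPM in KO cells and 21.6 ± 0.997 CPM in WT cells, and F2r averaged 110.0 ± 10.2 CPM in KO cells and 55.1 ± 10.5 CPM in WT cells (SD, n = 2 libraries each). CPM are the authors' deposited values, reads scaled to an effective library size. The ratio of the KO mean to the WT mean was 2.23 for Gp5 and 1.997 for F2r. The other 6 measured members did not pass the test and had log2 fold changes of -0.14 to 0.58.

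Thus 2 of 8 members were called, both higher in KO cells, where 2.42% of all 15255 genes were called in either direction, 1.58% higher and 0.839% lower, at a limma p under 0.05 after Benjamini-Hochberg adjustment over all genes. By limma, edgeR and DESeq2 0 members were called lower, and none had an unadjusted limma p under 0.05 in that direction. Fits without KO replicate 1 or without KO replicate 2 set 1 KO library against 2 WT libraries, with 1 residual degree of freedom. The KO library is then assumed to vary as the WT libraries do, so calls in those fits are not read as results about the members. Without KO replicate 1 the log2 fold changes were 1.24 for Gp5 and 1.09 for F2r, and without KO replicate 2 they were 0.99 for Gp5 and 0.90 for F2r. The median log2 fold change of the 8 members was 0.28, beside -0.02 over all genes. The members together took 0.0839% and 0.0775% of assigned reads in the KO libraries and 0.0659% and 0.0546% in the WT libraries.

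The KO libraries held 16908812 and 16522338 assigned reads and the WT libraries 17222255 and 17271936, and every measured member had between 173 and 5577 reads in each library. Afg3l2 itself stood at 36.7 and 30.1 CPM in KO libraries and 79.6 and 86.0 CPM in WT libraries, with a log2 fold change of -1.29 (limma adjusted p = 0.0115). Both genes of the sort were expressed. Kit, which encodes c-Kit, averaged 239 ± 21.7 CPM in KO cells and 292 ± 68.9 CPM in WT cells, and Ly6a, which encodes Sca-1, averaged 86.2 ± 13.1 CPM in KO cells and 59.4 ± 3.21 CPM in WT cells (SD, n = 2 each). The replicate numbers coincided with sex-linked RNA: Xist stood at 15.7 CPM in KO and 0.113 CPM in WT replicate 1, and at 1004 CPM in KO and 889 CPM in WT replicate 2. Ddx3y, a Y-linked gene, stood at 72.4 CPM in KO and 83.4 CPM in WT replicate 1, and at 3.50 CPM in KO and 5.04 CPM in WT replicate 2. The libraries of a genotype were thus not repeats of 1 RNA sample. A fit that blocks on the replicate number also takes up this difference. Sex cannot be told apart there from whatever else a number shares, and its own part in the members' spread was not tested.

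Gp5 encodes glycoprotein V, a leucine-rich repeat subunit of the GPIb-IX-V complex and a substrate of thrombin. It stood at 44.0 and 52.6 CPM in KO replicates 1 and 2, against 22.4 and 20.9 CPM in WT replicates 1 and 2. Both KO libraries were high, and the WT libraries lay close together, differing by a ratio of 1.07. Its log2 fold change came to 1.12 ± 0.17 (SE; limma adjusted p = 0.0219), with a 95% confidence interval of 0.72 to 1.52. With all 4 libraries the call was lost by limma-voom (limma-voom adjusted p = 0.0557). The log2 fold change was 1.24 without KO replicate 1 and 0.99 without KO replicate 2.

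F2r encodes PAR1, a receptor that thrombin switches on by clipping its outer end. It stood at 103 and 117 CPM in KO replicates 1 and 2, against 62.5 and 47.6 CPM in WT replicates 1 and 2. The groups did not overlap, although the WT libraries differed by a ratio of 1.31. Its log2 fold change came to 0.99 ± 0.17 (SE; limma adjusted p = 0.0325), with a 95% confidence interval of 0.59 to 1.40. With all 4 libraries the call was lost by limma-voom (adjusted p = 0.0669) and by edgeR without robust moderation (0.0616). The log2 fold change was 1.09 without KO replicate 1 and 0.90 without KO replicate 2.

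In mouse platelets the response to thrombin uses relatives of PAR1 encoded by F2rl2 and F2rl3. Both genes were named here for that kinship after their values had been seen. F2rl2 averaged 22.1 ± 5.76 CPM in KO cells and 16.8 ± 3.80 CPM in WT cells (SD, n = 2 each; log2 fold change 0.37, limma adjusted p = 0.451). F2rl3 averaged 24.1 ± 7.05 CPM in KO cells and 22.8 ± 6.12 CPM in WT cells (SD, n = 2 each; log2 fold change 0.07, limma adjusted p = 0.908). Neither passed the test.

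The stretches before the RefSeq starts of Gp5 and F2r are shown beside those of Gp9 and Itga2b, members that did not pass. They are shown because GATA and ETS factors are the textbook activators of megakaryocyte promoters. RefSeq promoters on GRCm38.p6 matched 6 of the 8 measured members. The 250 bases before the start were searched on both strands for GATA words (GATA with A or T just before it and A or G just after it). They were also searched for the ETS word GGAAG, and other forms of an ETS site were not searched. None of the matches overlapped in the lines printed. Capitals mark the matches on either strand, and each line reads 5′ to 3′ on the strand of its gene. Gp5 is chr16:30310782-30311031 (minus strand) and F2r is chr13:95618467-95618716 (minus strand). Gp9 is chr6:87777820-87778069 (plus strand) and Itga2b is chr11:102469884-102470133 (minus strand). In GENCODE M21 the Itga2b gene reaches to 102470122 and the F2r gene to 95618487. Most of the Itga2b window and a small part of the F2r window thus lie inside the genes as annotated there.
Gp5: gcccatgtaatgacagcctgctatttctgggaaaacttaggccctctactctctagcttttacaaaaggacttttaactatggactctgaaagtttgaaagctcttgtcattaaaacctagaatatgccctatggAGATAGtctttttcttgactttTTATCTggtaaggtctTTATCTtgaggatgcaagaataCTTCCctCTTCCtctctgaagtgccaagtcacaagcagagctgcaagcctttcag
F2r: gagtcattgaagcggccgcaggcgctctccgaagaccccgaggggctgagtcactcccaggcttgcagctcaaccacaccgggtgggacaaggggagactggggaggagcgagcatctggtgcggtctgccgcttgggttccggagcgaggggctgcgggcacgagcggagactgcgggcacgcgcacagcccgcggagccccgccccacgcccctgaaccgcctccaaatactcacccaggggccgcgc
Gp9: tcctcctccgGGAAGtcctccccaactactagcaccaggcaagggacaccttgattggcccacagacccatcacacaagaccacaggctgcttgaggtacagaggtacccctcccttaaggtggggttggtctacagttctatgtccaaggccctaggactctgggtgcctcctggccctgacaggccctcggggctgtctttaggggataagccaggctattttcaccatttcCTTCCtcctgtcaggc
Itga2b: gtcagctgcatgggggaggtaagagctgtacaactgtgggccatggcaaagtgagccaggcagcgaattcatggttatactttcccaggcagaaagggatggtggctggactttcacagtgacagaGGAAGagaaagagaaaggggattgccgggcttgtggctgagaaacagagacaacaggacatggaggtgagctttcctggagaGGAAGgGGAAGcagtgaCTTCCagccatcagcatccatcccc

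Counted from -1 at the base before the start, Gp5 held 3 GATA words. They lay at -115 to -110 on the strand printed and at -93 to -88 and -77 to -72 on the other strand. Gp5 also held 2 ETS words, at -55 to -51 and -48 to -44. F2r held 0 of the words searched, and 70.8% of its bases were G or C, against 40.8% in Gp5. Itga2b held 4 ETS words, Gp9 and Selp held 2 each and Pf4 held 1, and these 4 genes held 0 GATA words in the window. Of all 32851 promoters in the RefSeq table, 26.5% held a GATA word and 64.1% held an ETS word. The called members thus differed from each other in these letters, and a match is a description of letters, not a bound site.

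**Figure D1:**
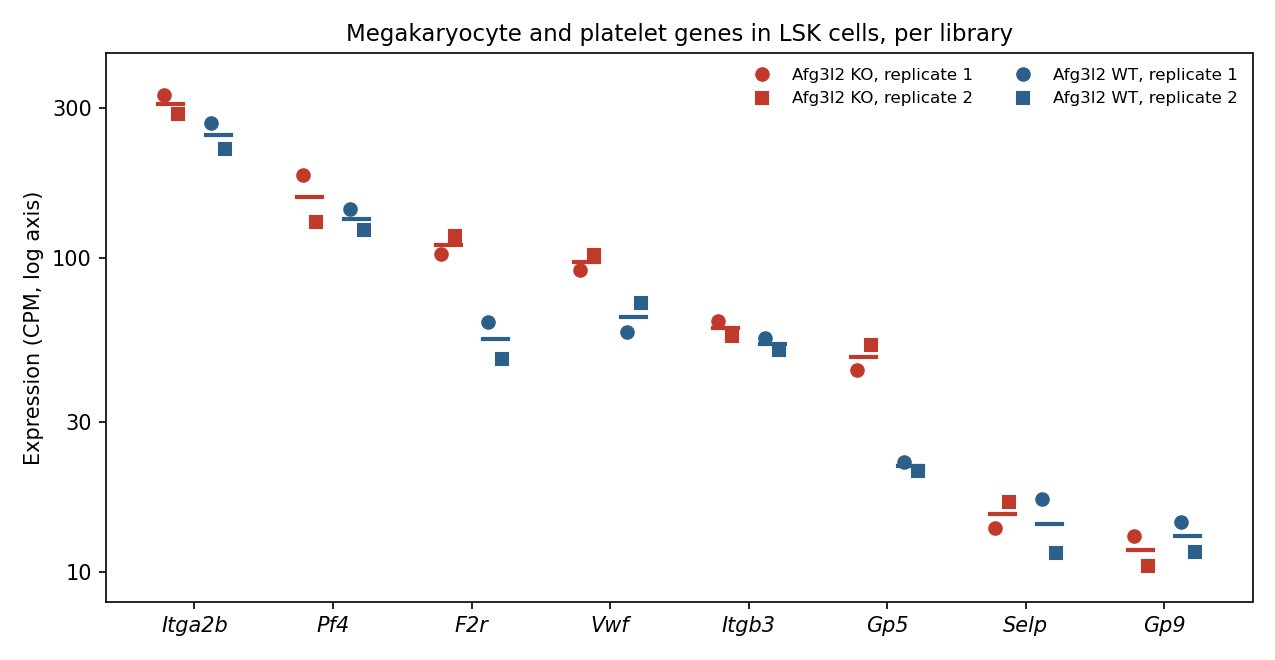
CPM (log axis) of the 8 measured members in each library; red points are Afg3l2 KO and blue points Afg3l2 WT libraries, circles are replicate 1, squares replicate 2, and bars are means of 2 libraries. For Gp5 (44.0 and 52.6 CPM in KO, 22.4 and 20.9 CPM in WT) and F2r (103 and 117 CPM in KO, 62.5 and 47.6 CPM in WT) the red points stand clear of the blue ones, and for Gp9, Pf4 and Selp they overlap.

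Gp9 encodes glycoprotein IX, a small subunit that the GPIb complex needs to reach the cell surface. It stood at 12.9 and 10.4 CPM in KO libraries and 14.4 and 11.6 CPM in WT libraries. The groups overlapped, with a log2 fold change of -0.14 ± 0.25 (SE; limma adjusted p = 0.796) and a 95% confidence interval that runs from 0.605-fold to 1.36-fold. Gp1ba, which encodes the subunit that binds von Willebrand factor, stood at 7.72 and 14.5 CPM in KO libraries and 9.05 and 9.43 CPM in WT libraries (log2 fold change 0.18, limma adjusted p = 0.789).

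The complex partners Gp5 and Gp9 stood in different proportions in the 2 genotypes. The ratio of Gp5 to Gp9 CPM was 3.40 and 5.03 in KO replicates 1 and 2, against 1.56 and 1.81 in WT replicates 1 and 2. Both KO ratios were above both WT ratios, by 1.30 on the log2 scale between group means. An exact two-sided permutation test gave p = 0.333, the smallest that 2 libraries against 2 can give, so this difference could not pass a threshold of 0.05. Behind the ratios were 173 to 254 reads of Gp9 and 353 to 871 reads of Gp5 in each library.

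Itga2b and Itgb3 encode the alpha IIb (CD41) and beta 3 (CD61) chains of the platelet fibrinogen receptor. Itga2b stood at 331 and 287 CPM in KO libraries and 269.7 and 223 CPM in WT libraries. The groups did not overlap, but the KO library with the lower value was close to the higher WT library, and the log2 fold change of 0.33 ± 0.15 (SE) did not pass (limma adjusted p = 0.272; 95% confidence interval -0.03 to 0.69). Itgb3, whose product also pairs with the alpha V chain, stood at 62.8 and 56.4 CPM in KO libraries and 55.6 and 50.7 CPM in WT libraries. Its groups were barely apart, with a log2 fold change of 0.16 ± 0.15 (SE; limma adjusted p = 0.579; 95% confidence interval -0.18 to 0.51). The ratio of Itga2b to Itgb3 CPM was 5.28 and 5.10 in KO libraries and 4.85 and 4.39 in WT libraries, a log2 difference of 0.17 (exact permutation p = 0.333, two-sided, the smallest possible). Of the 4 ratios between members that were computed, the other two overlapped between the genotypes. Vwf over Selp was 6.65 and 6.14 in KO libraries and 3.42 and 6.26 in WT libraries (exact permutation p = 0.667, two-sided), and Pf4 over Itga2b was 0.554 and 0.453 in KO libraries and 0.529 and 0.552 in WT libraries (log2 difference -0.11).

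Vwf encodes von Willebrand factor, the ligand of the GPIb-IX-V complex, which megakaryocytes and endothelial cells store. It stood at 91.6 and 102 CPM in KO libraries and 58.1 and 71.7 CPM in WT libraries. Both KO libraries were above both WT libraries, with a ratio of means of 1.49 and a log2 fold change of 0.58 ± 0.16 (SE), which did not pass over all genes (limma adjusted p = 0.110, unadjusted p = 0.00735). Its 95% confidence interval was 0.21 to 0.95. The call depended on the test, since the adjusted p was 0.0432 by DESeq2 and 0.122 by edgeR. In fits that block on the replicate number it was 0.0218 by limma and 0.0179 by edgeR. The log2 fold change was 0.43 without WT replicate 1 and 0.73 without WT replicate 2.

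Pf4 encodes platelet factor 4, a chemokine of alpha granules. It stood at 183 and 130.2 CPM in KO libraries and 143 and 123 CPM in WT libraries. KO replicate 1 was high, and KO replicate 2 lay between the WT libraries. The log2 fold change was 0.22 ± 0.19 (SE; limma adjusted p = 0.544; 95% confidence interval -0.22 to 0.66), and without KO replicate 1 it was -0.02.

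Selp encodes P-selectin, which moves from alpha granules to the platelet surface and from endothelial storage bodies to the endothelial surface. It stood at 13.8 and 16.7 CPM in KO libraries and 16.98 and 11.5 CPM in WT libraries. The WT libraries enclosed the KO libraries, with a log2 fold change of 0.11 ± 0.26 (SE; limma adjusted p = 0.846; 95% confidence interval -0.50 to 0.72). Without WT replicate 2 the log2 fold change was -0.15, and without KO replicate 2 it was -0.02. Selp shares 186 and 438 exon bases with the opposite-strand genes Gm16587 and Gm16548 in GENCODE M21, and without strand their reads cannot be told from its own. No other measured member shares exon bases with another gene there.

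**Figure D2:**
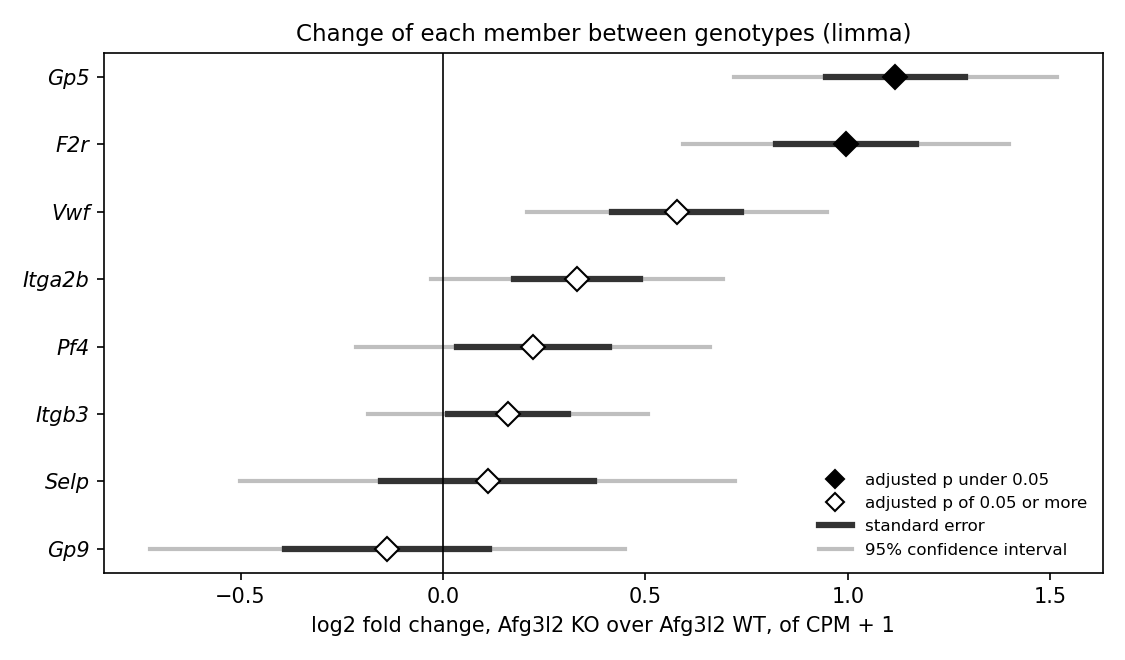
log2 fold change (CPM + 1; Afg3l2 KO over Afg3l2 WT) of each measured member from limma; diamonds are the estimates, filled where the adjusted p is under 0.05, thick lines the standard error and thin lines the 95% confidence interval. Gp5 (1.12) and F2r (0.99) are filled, the interval of Vwf (0.58) also lies above 0, and those of the other 5 members include 0.

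Regardless of the size of the difference, the groups did not overlap for 5 of the 8 members, Gp5, F2r, Vwf, Itga2b and Itgb3, with KO above WT in each, where 27.2% of all genes had KO above WT without overlap and 54.1% had no overlap in either direction. Between the libraries of 1 genotype, the ratio of the higher to the lower CPM ran from 1.11 for Itgb3 to 1.41 for Pf4 in KO cells and from 1.07 for Gp5 to 1.48 for Selp in WT cells. Between the libraries numbered 1, the log2 ratio of KO over WT was 0.95 for Gp5, 0.71 for F2r and 0.65 for Vwf. Between those numbered 2 it was 1.29 for Gp5, 1.28 for F2r and 0.51 for Vwf. Selp was the member whose direction differed between the numbers, at -0.28 between libraries numbered 1 and 0.50 between those numbered 2.

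Per kilobase of annotated exon, Pf4 had the highest level of the 8, with 217 ± 52.2 CPM per kilobase in KO cells and 184 ± 19.4 in WT cells (SD, n = 2 each), above 98.6% of all genes in KO cells and 98.3% in WT cells. Itga2b followed at 56.7 ± 5.70 CPM per kilobase in KO cells and 45.1 ± 6.08 in WT cells. In KO cells the order then ran F2r (33.0), Gp5 (21.98), Gp9 (13.3), Itgb3 (10.1), Vwf (6.03) and Selp (3.45 CPM per kilobase), and no neighbours in it had overlapping libraries. In WT cells it ran F2r (16.51), Gp9 (14.7), Gp5 (9.85), Itgb3 (9.01), Vwf (4.04) and Selp (3.22 CPM per kilobase), and the libraries of F2r and Gp9, and those of Vwf and Selp, overlapped. Gp5 thus stood above Gp9 in KO cells and below it in WT cells, while the other members kept their order.

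The genes are scattered, on GRCm38, over chromosomes 1, 5, 6, 11, 13 and 16. Gp5 (ENSMUSG00000047953) lies on chromosome 16 from 30307685 to 30310779 and F2r (ENSMUSG00000048376) on chromosome 13 from 95601803 to 95618487, both on the minus strand. Itga2b (102453297 to 102470122, minus strand) and Itgb3 (104608000 to 104670476, plus strand) share chromosome 11, and Gp9 (87778072 to 87779768) and Vwf (125546774 to 125686679), both on the plus strand, share chromosome 6. Pf4 lies on chromosome 5 from 90772435 to 90773383 and Selp on chromosome 1 from 164115264 to 164150026, both on the plus strand. All 8 are annotated as protein-coding.

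The authors' deposited table of statistics gave Gp5 a log2 fold change of 1.15 with an FDR of 2.04e-05. For F2r the authors' deposited table gave 1.01 with an FDR of 7.48e-05, and for Vwf it gave 0.58 with an FDR of 0.0182. The authors' deposited table thus had 3 of 8 members higher at an FDR under 0.05, where 6.04% of all genes were higher at that FDR. The other 5 members had FDRs of 0.263 for Itga2b to 0.888 for Selp in the authors' deposited table. Likelihood ratio testing in edgeR that blocked on the replicate number, run on the recovered reads, returned the deposited fold changes to within 3.4e-08.

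Of the authors' deposited gene lists, the 921 higher genes past the smaller fold limit held Gp5, F2r and Vwf, and the 454 past the larger one held Gp5 and F2r. The authors' deposited lists of 834 and 501 lower genes held 0 members. In the authors' deposited table of DAVID term enrichment for the 921 genes, positive regulation of coagulation listed Gp5, F2r and Vwf among 10 genes, with a fold enrichment of 4.35 and an FDR of 0.0174. Platelet activation in the authors' deposited table also listed all 3, among 14 genes (fold enrichment 2.42, FDR 0.133), while megakaryocyte differentiation listed Gp5 alone, among 8 genes (2.09, FDR 0.770). For the 454 genes, positive regulation of coagulation listed 4 genes at an FDR of 0.615 in the authors' deposited table. The authors drew these lists from the same libraries, so the terms are not independent evidence on the members.

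**Figure D3:**
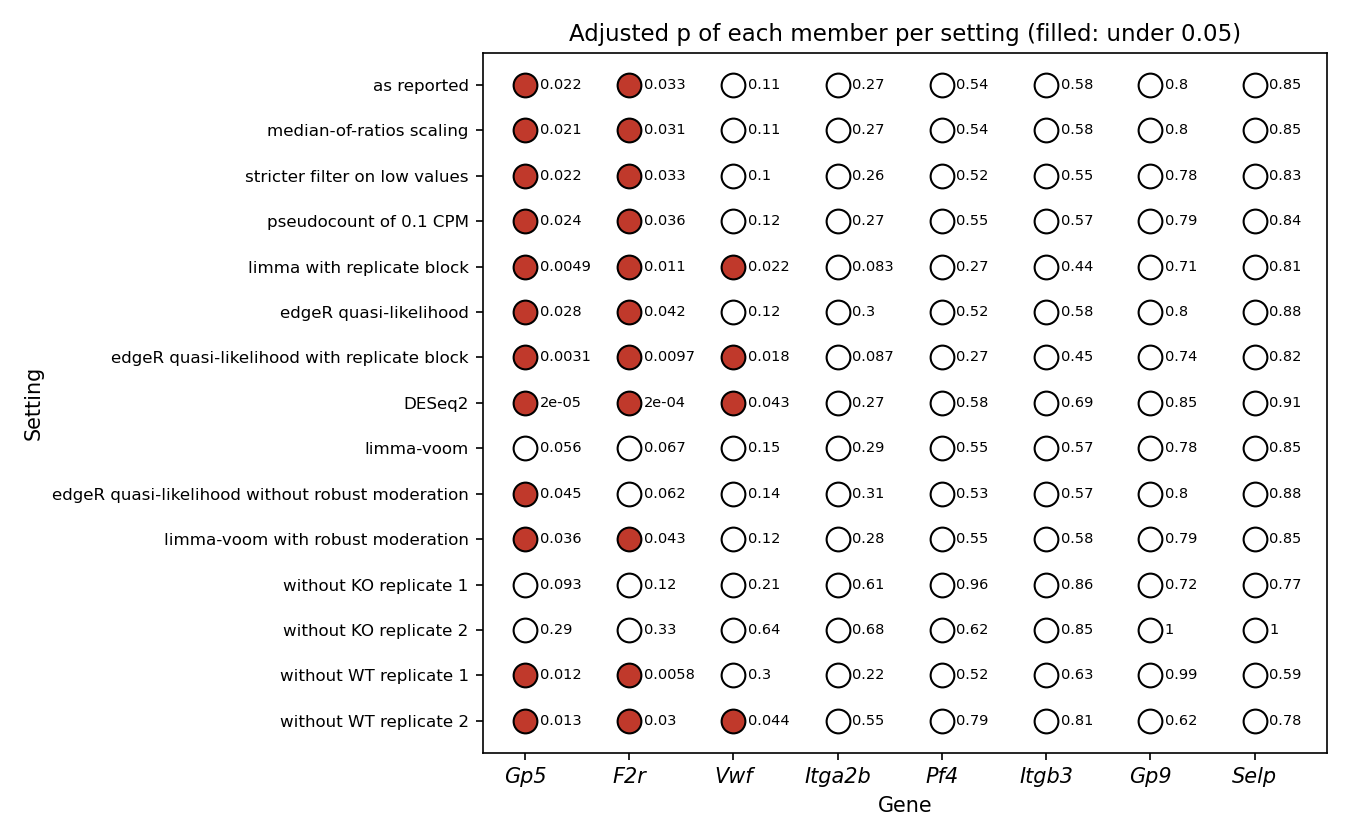
Adjusted p of each measured member (Afg3l2 KO against Afg3l2 WT) under each test and processing setting; filled points are under 0.05. The points of Gp5 (2.43e-05 to 0.0557 with all 4 libraries) and F2r (0.000161 to 0.0669) are mostly filled. Those of Vwf (0.0179 to 0.146) are filled under some settings and open under others, and those of the other 5 members are open.

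A further 101 megakaryocyte and platelet genes were listed by role, and 95 of them were in the table. For all lists below, counts at an unadjusted limma p under 0.05 are given without the share over all genes. Such counts are therefore not read as results about a list. Over all 15255 genes limma called 369, edgeR 287 and DESeq2 1221, and the calls of each list stand beside these. By limma 2 of the 95 rose and 2 fell, where 2.42% of all genes were called, and their median log2 fold change was 0.08, beside -0.02 over all genes. The called genes were Cd36, Gata1, Pecam1 and Tpm4. Fits that leave out a library set 1 library of a genotype against 2 of the other. Calls in such fits are therefore not given for the separate lists, and they are not read as results about a list.

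Of 15 adhesion receptors and integrin partners, 1 rose and 1 fell by limma and by edgeR (median log2 fold change -0.02). DESeq2 called 4 higher and 2 lower, where it called 1221 of all 15255 genes. At an unadjusted limma p under 0.05 there were 6 genes, of which 2 were lower. Cd36, a scavenger and thrombospondin receptor of platelets that red cell precursors also carry, stood at 23.5 and 25.4 CPM in KO libraries and 4.30 and 6.88 CPM in WT libraries (log2 fold change 1.98 ± 0.28, SE; limma adjusted p = 0.0156). Pecam1, an adhesion molecule of platelets, endothelium and leukocytes, stood at 65.5 and 55.8 CPM in KO libraries and 117 and 109.9 CPM in WT libraries (log2 fold change -0.90 ± 0.15, SE; limma adjusted p = 0.0270). The fibronectin and laminin receptor chains Itga5 and Itga6 had log2 fold changes of 0.69 and 0.59, with limma adjusted p-values of 0.0531 and 0.0928.

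Of 19 genes for granule cargo and granule formation, limma and edgeR called 0. DESeq2 called 1, where it called 1221 of all 15255 genes. At an unadjusted limma p under 0.05 there were 2, and the median log2 fold change was 0.07. F13a1, the A subunit of clotting factor XIII, which monocytes and macrophages also make, had the smallest p: it stood at 19.2 and 26.4 CPM in KO libraries and 98.2 and 223 CPM in WT libraries (log2 fold change -2.66 ± 0.45, SE; limma adjusted p = 0.0782). Nbeal2, which is needed to form alpha granules, had a log2 fold change of -0.41 (limma adjusted p = 0.179).

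Of 28 agonist receptors and activation genes, limma and edgeR called 0. DESeq2 called 1, where it called 1221 of all 15255 genes. At an unadjusted limma p under 0.05 there were 5, and the median log2 fold change was 0.08. The phospholipase gene Plcb2 had a log2 fold change of -0.70 (limma adjusted p = 0.104), and the ADP receptor gene P2ry1 one of 0.71 (0.174). Of 12 genes for the cytoskeleton and platelet shedding, 1 fell and 0 rose by limma and by edgeR (median log2 fold change 0.14). DESeq2 called 1 higher and 1 lower. At an unadjusted limma p under 0.05, 3 were higher and 1 was lower. Tpm4, a tropomyosin, stood at 49.2 and 67.9 CPM in KO libraries and 112 and 129.6 CPM in WT libraries (log2 fold change -1.05 ± 0.18, SE; limma adjusted p = 0.0334).

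Of 21 genes for megakaryocytic signalling and transcription factors, 1 rose and 0 fell by limma and by edgeR (median log2 fold change 0.10). DESeq2 called 5 higher and 2 lower, where it called 1221 of all 15255 genes. At an unadjusted limma p under 0.05 there were 9 genes, of which 3 were lower. Gata1, the factor that megakaryocytes and red cell precursors share, stood at 118 and 159 CPM in KO libraries and 67.1 and 58.5 CPM in WT libraries (log2 fold change 1.11 ± 0.18, SE; limma adjusted p = 0.0253). Its partners Gfi1b and Zfpm1 had log2 fold changes of 1.18 and 1.27, with limma adjusted p-values of 0.0516 and 0.0746. Runx1, which acts in stem cells and megakaryocytes, had a log2 fold change of -0.69 (limma adjusted p = 0.0515).

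**Figure D4:**
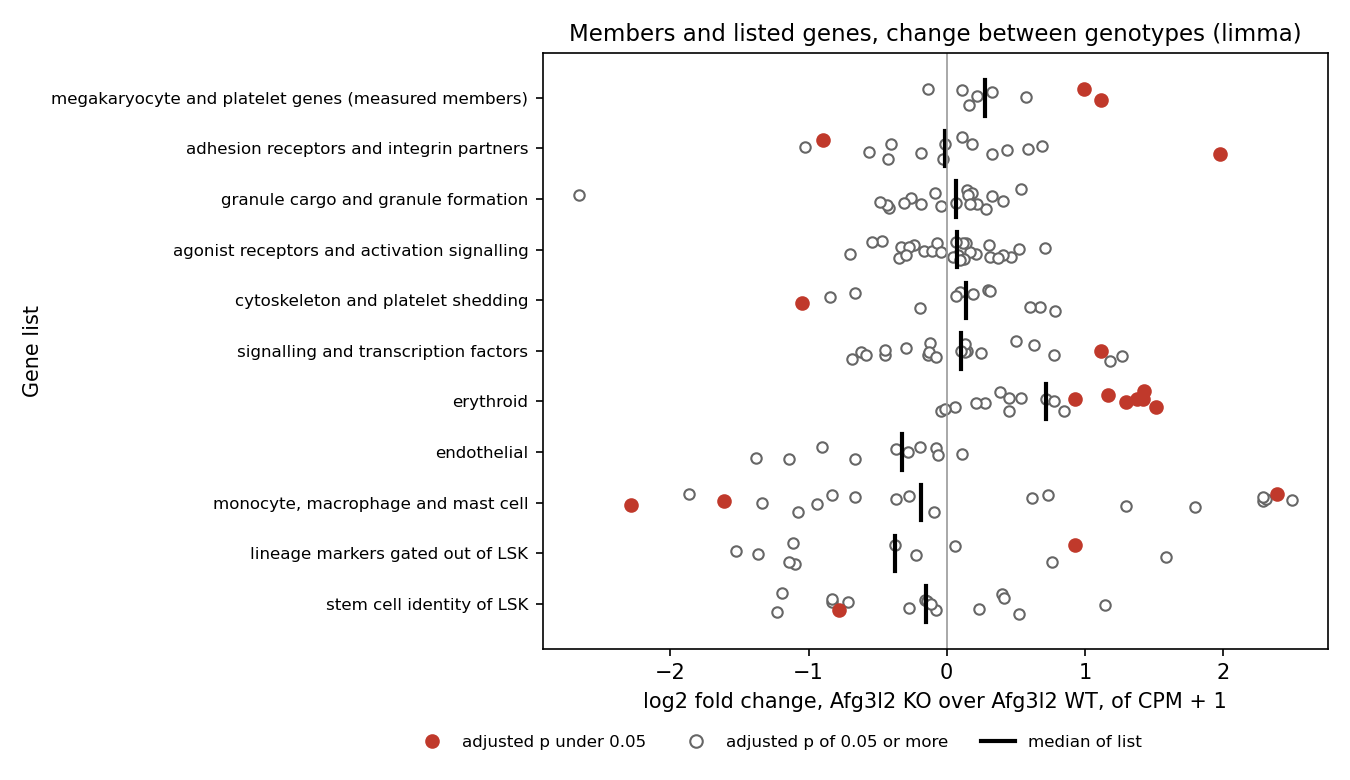
log2 fold change (CPM + 1; Afg3l2 KO over Afg3l2 WT) of the members and of the genes of 10 lists, members left out of the lists; each point is a gene, red where the limma adjusted p is under 0.05, and bars are medians. The platelet lists have medians of -0.02 to 0.14, the members 0.28 and the erythroid list 0.72.

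Markers of other cell types also differed between the genotypes. Of 19 erythroid genes, 7 rose and 0 fell by limma, with 13 at an unadjusted p under 0.05, of which 0 were lower, and 6 rose and 0 fell by edgeR (median log2 fold change 0.72). Among the called genes were the erythropoietin receptor gene Epor, the transcription factor gene Klf1, Car1, Ermap and Rhag. The 4 globin genes of the list did not pass the test, with log2 fold changes of -0.04 to 0.28. The CPM of all 19 summed to 2648 and 3597 in KO libraries and 1791 and 1640 in WT libraries, so both KO libraries were high. Without KO replicate 1 the count was 3 and without KO replicate 2 it was 0. This erythroid difference ran in the same libraries as those of Gp5, F2r and Gata1, and its part in them was not tested.

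Endothelial cells also make Vwf, Selp and PAR1. Of 10 endothelial genes in the table, limma, edgeR and DESeq2 called 0, with 2 at an unadjusted limma p under 0.05, both lower, and the median log2 fold change was -0.33. Their summed CPM was 96.6 and 51.6 in KO libraries and 129 and 86.3 in WT libraries. The list was uneven. Tie1, a receptor that blood progenitors also express, made up most of the sum, at 68.5 and 34.0 CPM in KO libraries and 84.1 and 46.5 CPM in WT libraries, and Robo4, a receptor that stem cells also express, stood at 6.83 and 2.78 CPM in KO libraries and 20.9 and 8.13 CPM in WT libraries. Cdh5 stood at 1.31 and 0.241 CPM in KO libraries and 1.19 and 3.56 CPM in WT libraries, and Kdr at 2.08 and 2.84 CPM in KO libraries and 1.53 and 4.09 CPM in WT libraries. None of the 10 was at 0 in all libraries.

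Markers of maturing megakaryocytes outside the members were also measured. Tubb1, the beta-tubulin of platelets, stood at 0.891 and 0.241 CPM in KO libraries and 0.792 and 3.20 CPM in WT libraries, and the granule chemokine gene Ppbp at 7.31 and 6.94 CPM in KO libraries and 7.47 and 10.98 CPM in WT libraries. Neither passed the test (limma adjusted p-values of 0.338 and 0.590). Per kilobase of exon Ppbp stood at 6.58 CPM in KO cells and 8.52 CPM in WT cells, above Vwf and Selp and far below Pf4. Nfe2, a factor needed for platelet shedding that earlier progenitors also express, averaged 179.7 ± 36.0 CPM in KO cells and 195 ± 35.2 CPM in WT cells (SD, n = 2 each).

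Of 20 monocyte, macrophage and mast cell genes, 1 rose and 2 fell by limma (median log2 fold change -0.18): the mast cell protease gene Cma1 rose, and the receptor genes Cx3cr1 and Csf1r fell. Their summed CPM was 3390 and 2538 in KO libraries and 3272 and 9679 in WT libraries, WT replicate 2 standing apart. Over 11 lineage markers that the sort should remove, the median log2 fold change was -0.37, and their summed CPM was 104 and 273 in KO libraries and 159 and 371 in WT libraries. Of 16 genes of stem cell identity, Cd48, a marker of progenitors beyond the stem cell stage, fell alone and 0 rose by limma. At an unadjusted limma p under 0.05, 2 of the 16 were higher and 2 were lower. EdgeR called 0 of them (median log2 fold change -0.15). The part of these differences in the members' values was not tested.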

How the data were processed

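Poly(A) RNA-seq of 2 Afg3l2 KO and 2 Afg3l2 WT LSK libraries was used. Per the submitters' processing notes the tools were STAR 2.7.10a and featureCounts 2.0.1 with GRCm38.p6. The annotation, trimming and strand settings are not given in the sources used here. The deposited normalized signal per gene is CPM scaled by the authors to an effective library size, which equalled edgeR's TMM size. Dividing it by its smallest step gave whole reads (100% of values within 0.01), used in the count tests. The authors' deposited table also gives log2 fold changes, an average log2 CPM, a likelihood ratio score, and p-values with FDR. Further deposited sheets hold the authors' gene lists and DAVID terms, whose fold enrichment is a ratio.

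As the values are normalized, the test was limma 3.58.1 (R 4.3.3) on log2(CPM + 1), with trend and robust moderation, no replicate block, two-sided, adjusted by Benjamini-Hochberg over all 15255 genes and called under 0.05. The pseudocount shortens fold changes of low genes. Scripts were tested on simulated data. Alternatives used edgeR 4.0.16, DESeq2 1.42.0 and limma-voom. Intervals cover the spread between libraries after moderation, which also draws on other genes (7.61 degrees of freedom for each member, of which 2 are residual).

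Members and lists were chosen with earlier results of these data known. The text names every member and, from each list, called genes and up to 4 more with the smallest p, plus cell type markers; F2rl2 and F2rl3 were added later, and some listed genes that this rule names are not reported here. Positions are from GENCODE M21 (15232 of 15255 identifiers found).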

Additional observations from a re-analysis of the deposited data

How the results depend on the processing

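With all libraries, the 369 genes called by limma became 409 with median-of-ratios scaling, 379 with a stricter filter, 353 with a pseudocount of 0.1 CPM and 287 by edgeR. The count was 1221 by DESeq2, 117 by limma-voom and, chosen after seeing the data, 194 by edgeR without robust moderation and 253 by limma-voom with it. Members called numbered 3 by DESeq2 (Vwf added), 0 by limma-voom and 1 by edgeR without robust moderation. Listed platelet genes called numbered 17 by DESeq2 and 1 by limma-voom. Leaving out each library in turn gave 0 to 1068 genes, 0 to 3 members and 0 to 11 listed genes.

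Under a replicate block, limma called 1779 genes, 3 members and 20 listed genes, and edgeR called 1789 genes, 3 members and 22 listed genes. The third member was Vwf in both fits. Deviations of same-numbered libraries correlated at 0.286 across 13795 genes. The authors named their deposited comparison paired, and a fit that blocks on the number returned its fold changes. The labels do not say what a replicate number shares, so the block was kept as an alternative.

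Of 112 member values under 14 alternatives, 96 kept direction and side of the threshold, 7 lost a call (Gp5 and F2r), 4 gained one (Vwf) and 5 changed sign. Those were Gp9 (0.0071 without WT replicate 1, 0.0049 without KO replicate 2), Selp (-0.1543 without WT replicate 2, -0.0176 without KO replicate 2) and Pf4 (-0.0241 without KO replicate 1). Leaving out each library in turn gave log2 fold changes of -0.2834 to 0.0071 for Gp9, -0.1543 to 0.3756 for Selp and -0.0241 to 0.4668 for Pf4. The cause was not tested. Gp9 and Selp, with 173 to 300 reads a library, had the largest standard errors of the members, 0.25 and 0.26 on the log2 scale.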
